A study of Mus musculus with 18 samples.

Results

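The comparison described here sets mice heterozygous for the forkhead gene Foxa2 (Foxa2+/-, n = 4 libraries, replicates 11 to 14) against wild-type mice (n = 5 libraries, replicates 1 to 5). Its members are the 9 libraries titled for these genotypes, of 18 in the series. The other 9 come from animals heterozygous for both Falcor and Foxa2 (double-heterozygous, Falcor+/-;Foxa2+/-, n = 4, replicates 15 to 18) and from Falcor-/- animals (n = 5, replicates 6 to 10). All mice were adults of 10 to 12 weeks, and each library is total RNA of lung cells captured on magnetic beads by EpCAM, a surface protein of epithelial cells. How the Foxa2 allele was made is not given in the sources used here, nor is it stated that each library is a separate animal, so the p-values measure the spread between these libraries.

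Foxa2 encodes a winged-helix transcription factor that can open closed chromatin and that acts with its close relative Foxa1 in the branching and differentiation of the lung epithelium. In the adult lung it is made in airway cells and in alveolar type 2 cells, the cells that secrete surfactant, and mice lacking it in the epithelium develop mucous cell metaplasia and airspace enlargement. Next to Foxa2 lies Falcor, a long non-coding RNA gene, here the annotated transcript 9030622O22Rik.

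The upstream sequences of the 2 transcripts of this locus show what lies in front of the genes that follow. They are the 250 bases before a listed transcription start in RefSeq on GRCm38.p6, written 5′ to 3′ on the gene's strand. Capitals mark a forkhead string on either strand, which may be TGTTTAC, the variant TGTTTGC, or the variant TATTTAC.
Foxa2, first listed start, chr2:148046970-148047219, minus strand: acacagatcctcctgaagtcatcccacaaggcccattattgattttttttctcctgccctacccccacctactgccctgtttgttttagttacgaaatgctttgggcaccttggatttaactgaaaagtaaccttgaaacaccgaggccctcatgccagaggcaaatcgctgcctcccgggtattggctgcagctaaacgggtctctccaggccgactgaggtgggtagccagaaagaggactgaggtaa
9030622O22Rik, listed start 4, chr2:148040373-148040622, minus strand: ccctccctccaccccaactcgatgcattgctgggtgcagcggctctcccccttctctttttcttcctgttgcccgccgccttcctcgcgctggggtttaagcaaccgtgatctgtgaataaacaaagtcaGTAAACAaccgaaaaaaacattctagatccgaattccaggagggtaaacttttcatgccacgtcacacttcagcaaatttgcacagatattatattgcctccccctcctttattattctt
The forkhead strings stand in 3195 of 32851 such windows over all listed starts (9.73%), in 19 of the 26 windows listed for 9030622O22Rik, which were not checked for overlap, and in 0 of the 3 listed for Foxa2. Windows of 1 gene can hold the same bases, so the 19 may repeat a single match. The printed window of 9030622O22Rik is 1 of these 19, and its match begins at position -120, counting -1 as the base before the start. These are matches of letters and not measured binding.

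Foxa2 itself was lower in every Foxa2+/- library. Its level was 12.37, 12.38, 12.35 and 12.47 log2 units in Foxa2+/- replicates 11 to 14, against 12.94, 12.99, 13.03, 13.03 and 12.83 in wild-type replicates 1 to 5. The groups did not overlap, and the spread within each was far below the gap between them. The difference was -0.57 (SE 0.10), or 67.3% of the wild-type level, with an adjusted p of 0.00245 in limma's moderated test and an exact permutation p of 0.00794, the smallest that 126 regroupings of 4 against 5 libraries can give.

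The Falcor transcript went the other way. Its level was 11.46, 11.96, 11.66 and 11.72 in Foxa2+/- libraries, against 10.72, 10.21, 9.68, 9.71 and 10.59 in wild type. The lowest Foxa2+/- library stood above the highest wild-type library, and wild-type replicates 3 and 4 were the lowest of all. The difference was 1.52 (SE 0.29), a 2.86-fold higher level, with an adjusted p of 0.00325 in limma and an exact permutation p of 0.00794.

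Neither of the other Foxa genes passed the adjusted p of 0.05 below which a gene is called changed in the fit of all libraries. Without Foxa2+/- replicate 11, the called rises among these 4 transcripts numbered 2, the Falcor transcript and a further Foxa gene. Foxa1, the partner of Foxa2 in lung development, was at 13.65, 13.71, 13.49 and 13.63 in Foxa2+/- libraries and at 13.50, 13.28, 13.37, 13.16 and 13.14 in wild type. The groups met at Foxa2+/- replicate 13 and wild-type replicate 1, and the difference was 0.33 (SE 0.11), with an adjusted p of 0.0908 in limma and an exact permutation p of 0.0238. Foxa3, the family member better known from liver and from airway goblet cells, was near the low end of the measured range, at 6.80, 7.54, 7.60 and 7.12 in Foxa2+/- libraries and 6.73, 6.27, 5.91, 5.91 and 6.35 in wild type. Its groups did not overlap, and the difference of 1.03 (SE 0.31) had an adjusted p of 0.0562 in limma and an exact permutation p of 0.0159. The 95% interval of the Foxa1 difference ran from 0.10 to 0.56, and that of Foxa3 from 0.39 to 1.68.

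**Figure D1:**
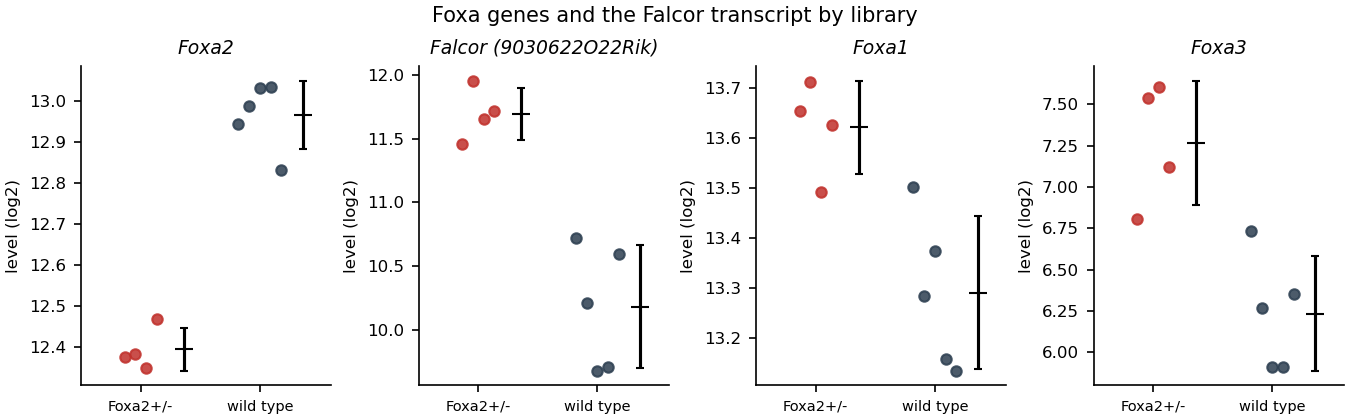
Level (log2) of Foxa2, the Falcor transcript 9030622O22Rik, Foxa1 and Foxa3 in each library, Foxa2+/- on the left and wild type on the right, with bars for mean ± SD (n = 4 and n = 5). Foxa2 lies between 12.35 and 12.47 in Foxa2+/- libraries, below all wild-type libraries, while the Falcor transcript lies between 11.46 and 11.96, above all of them.

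The nearest neighbours of Foxa2 on chromosome 2 differed in direction. In the order of the annotation, Kiz, a centrosome gene, and Xrn2, a nuclear exoribonuclease, stand on the Falcor side, and Thbd, Cd93 and Nxt1 on the other. Kiz and Nxt1 were not called, at 0.19 (SE 0.10) and 0.03 (SE 0.12). Xrn2 was called at 0.21 (SE 0.06), but its call ended in 7 of 9 runs that each left out 1 library, holding only without Foxa2+/- replicate 11 or wild-type replicate 3, with adjusted p up to 0.157 in limma. Thbd (thrombomodulin) and Cd93, both endothelial surface proteins, fell by 2.02 and 1.80, the Cd93 call ending without Foxa2+/- replicate 11 or 14 (adjusted p up to 0.0631 in limma). Within 5 Mb on either side of Foxa2 in that annotation, 6 of 71 tested genes were called higher and 3 lower, counts that include the Falcor transcript and Foxa2 themselves, against 1.96% higher and 4.15% lower over all genes.

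Over the 15249 genes tested, 932 were called (6.11%), of which 299 were higher (1.96%) and 633 lower (4.15%) in Foxa2+/- libraries. The falls were the larger changes. Among called genes the median difference was -1.29 for those lower and 0.58 for those higher, and 406 fell by 1 log2 unit or more while 62 rose by as much (468 together, 3.07% of the genes tested). The median over all genes was 0.04. Leaving out 1 library at a time gave 556 (without Foxa2+/- replicate 13) to 1118 calls (without wild-type replicate 3), with 606 without Foxa2+/- replicate 12, and 472 genes, 80 higher and 392 lower, were called in every such run. Scaling each library to the median of the epithelial junction genes lowered the median difference by 0.19 and turned the split to 100 higher and 1547 lower, so a small positive difference is positive only relative to the bulk of genes.

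Among the largest rises of genes with a mean level of 8 or more were several that are not usual lung genes. Prmt8, an arginine methyltransferase best known from neurons, was at 11.02, 12.18, 12.46 and 11.44 in Foxa2+/- libraries, against 10.59, 10.64, 9.58, 9.41 and 9.14 in wild type (difference 1.90, SE 0.42, adjusted p 0.00977 in limma). Slc30a2, a zinc exporter of secretory cells, was at 9.93, 10.12, 10.37 and 9.61, against 8.13, 8.52, 8.15, 7.85 and 8.47 (1.79, SE 0.21, adjusted p 0.000595 in limma). Neither gene's groups overlapped, and Slc30a2 shared the smallest adjusted p of the comparison. Noxa1, an activator subunit of an NADPH oxidase, was at 10.26, 10.97, 10.97 and 10.89 in Foxa2+/- libraries, against 9.39, 8.88, 9.17, 9.73 and 9.67 in wild type (1.41, SE 0.21). Cnga2, a channel subunit known from olfactory neurons, rose by 1.71 (SE 0.33). Plcd4, a phospholipase C, rose by 1.43 (SE 0.28), and Tnfaip8l3, a phosphoinositide transfer protein, by 1.53 (SE 0.32). Gdnf, a neurotrophic factor, was at 11.56, 10.97, 11.90 and 10.60 in Foxa2+/- libraries, against 10.00, 10.18, 10.08, 9.42 and 9.50 in wild type (1.42, SE 0.29). Each of these kept its call whichever library was left out.

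Rises with the smallest p included abundant genes of small change. Atg13, part of the kinase complex that starts autophagy, was at 13.02, 13.29, 13.29 and 13.19 in Foxa2+/- libraries, against 12.61, 12.81, 12.61, 12.78 and 12.61 in wild type (0.51, SE 0.08, adjusted p 0.000738 in limma). Snd1, a nuclease of RNA-binding complexes, was 0.37 higher (SE 0.06), and Lypd6b, a membrane-anchored modulator of nicotinic receptors, 0.78 higher (SE 0.12). Under the junction scaling these 3 differences were 0.32, 0.18 and 0.59.

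The genes below are among the largest falls and those with the smallest p. Apln (apelin, a peptide of capillary endothelium) was at 6.61, 7.28, 6.45 and 6.44 in Foxa2+/- libraries, against 9.57, 9.49, 8.60, 9.30 and 10.47 in wild type, 6.93-fold lower (-2.79, SE 0.34, adjusted p 0.000595 in limma). Svep1, a large matrix protein, was at 7.15, 7.54, 7.33 and 6.92, against 10.34, 10.46, 9.17, 9.72 and 10.25 (-2.75, SE 0.36). In both, wild-type replicate 3 was the lowest wild-type library and still stood above every Foxa2+/- library. Mmp2, a gelatinase made by fibroblasts, was at 8.34, 8.19, 8.40 and 8.44 in Foxa2+/- libraries, against 10.56, 10.60, 9.92, 10.49 and 10.58 in wild type (-2.09, SE 0.24). Scn7a, a sodium channel, fell by 2.70 (SE 0.35), Pcolce2, an enhancer of procollagen processing, by 2.70 (SE 0.35), and S1pr3, a receptor for sphingosine-1-phosphate, by 2.67 (SE 0.38). Gng11, a G protein gamma subunit, fell by 2.64 (SE 0.34). Hsd11b1, which regenerates active glucocorticoid, fell by 2.56 (SE 0.33). Unc45b, a myosin chaperone, fell by 2.35 (SE 0.28) and Nova2, a splicing regulator of neurons and endothelium, by 2.30 (SE 0.29). All of them held in every run that left out a library.

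Endothelial markers fell nearly as a whole. Of 34 pan-endothelial markers tested, 31 fell and 0 rose (30 to 32 lower in the runs that left out a library), and in 31 the 2 groups of libraries did not overlap, against 5.48% of all genes tested not overlapping in that direction. Their median difference was -2.18. Robo4, a guidance receptor of vessels, was at 8.73, 8.95, 8.67 and 8.18 in Foxa2+/- libraries, against 11.18, 11.21, 10.11, 11.33 and 11.55 in wild type (-2.45, SE 0.33, adjusted p 0.000654 in limma). Pecam1, the classic junction protein of endothelium, was at 11.69, 12.07, 11.84 and 11.52, against 13.90, 14.23, 12.84, 14.17 and 14.43, 4.39-fold lower. Pecam1 was at 11.52 or more in every library, so vessel RNA was present in both genotypes after the EpCAM capture. The adaptor She fell by 2.27, the matrix protein Mmrn2 by 2.52, the transcription factor Sox7 by 2.46. Ushbp1 fell by 2.33. The 3 members not called were Kdr, the main receptor for VEGF, at -0.66 (SE 0.26, adjusted p 0.159 in limma), Cd34 at -1.44 and Esam at -0.27.

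Capillary, arterial and venous markers shared in the fall, where 4.15% of all genes tested were called lower and 1.96% higher. In capillaries 16 of 20 markers fell (median -1.73), among them Prx, Plvap, which spans the diaphragms of fenestrae, Gpihbp1, which holds lipoprotein lipase, and Tbx2, by 2.10, 2.36, 2.14 and 2.21. Of 18 arterial and venous markers 11 fell (median -1.44), with Efnb2, Hey1, Sox17 and Dll4, which mark arteries, at -1.44, -1.45, -2.16 and -1.90 and Vegfc at -1.44. Lymphatic markers fell in 2 of 10, Flt4 by 2.28 and Sema3a by 0.96, the Sema3a call ending without Foxa2+/- replicate 11 or 13 or wild-type replicate 1, 4 or 5 (adjusted p up to 0.0821 in limma). Prox1, which defines lymphatic identity, was at -0.09 and not called. Its level was 9.09 in Foxa2+/- replicate 11 and 6.86 to 7.22 in the other Foxa2+/- libraries, so this difference leans on replicate 11.

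By library, the mean of the 34 pan-endothelial markers was 10.25, 10.71, 10.38 and 10.33 in Foxa2+/- replicates 11 to 14, against 12.50, 12.73, 11.44, 12.73 and 13.01 in wild-type replicates 1 to 5. Their summed level, on a log2 scale, ran from 16.04 to 16.45 in Foxa2+/- and from 17.11 to 18.58 in wild-type libraries. Wild-type replicate 3 stood nearest to the Foxa2+/- libraries. In bulk RNA, fewer cells of a type and less RNA per cell cannot be told apart. Of the variance of this mean over the 18 libraries, 82.4% lay between genotypes, so endothelial level and genotype cannot be told apart in most genes. With the mean as a covariate, 0 of 15249 genes were called in limma. An unadjusted p under 0.05 was found in 622 genes with the covariate and in 2931 without it. The 622 are a smaller share than that threshold passes by chance. In the fit with the covariate the difference of Foxa2 was -0.95 (SE 0.17) and that of the Falcor transcript 2.07 (SE 0.53).

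**Figure D2:**
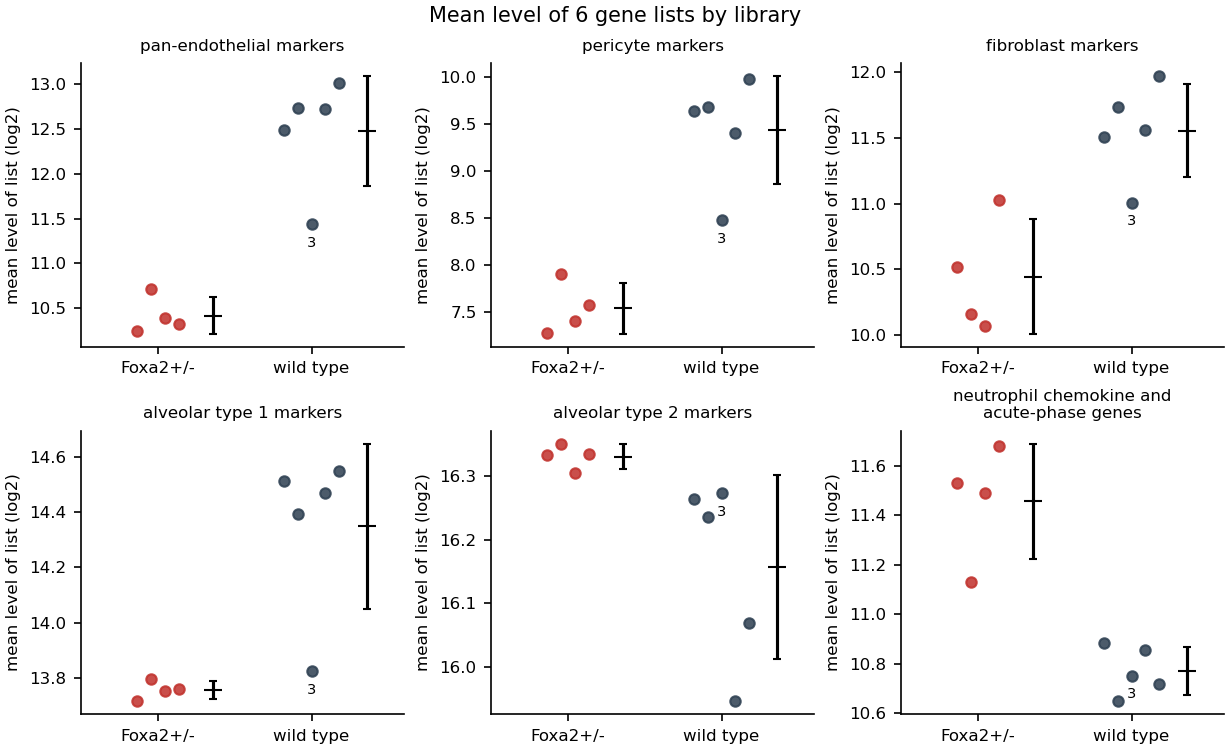
Mean level (log2) of 6 gene lists in each library, Foxa2+/- left of wild type, with bars for mean ± SD (n = 4 and n = 5) and wild-type replicate 3 marked by its number. Foxa2+/- libraries lie between 10.25 and 10.71 for pan-endothelial markers, against 11.44 to 13.01 in wild type, and replicate 3 is the lowest wild-type library for vessel, pericyte, fibroblast and alveolar type 1 markers.

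Most pericyte markers fell as well, against 4.15% of all genes tested called lower. Of 13 pericyte markers tested, 10 fell and 0 rose (median -2.10, 8 to 10 lower in the runs that left out a library). Gucy1b1, a subunit of the nitric oxide receptor, was at 7.20, 7.83, 7.37 and 7.08 in Foxa2+/- libraries, against 10.38, 10.31, 8.94, 9.90 and 10.98 in wild type (-2.73, SE 0.39). Pdgfrb, a receptor found on pericytes, was at 7.35, 8.14, 7.43 and 7.94, against 10.40, 10.38, 9.05, 10.27 and 11.09 (-2.52, SE 0.40). No Foxa2+/- library reached a wild-type library in either gene. Postn (periostin) fell by 2.74, Angpt1, the ligand of the endothelial receptor Tek, by 2.34, and Ndufa4l2 by 2.82. Abcc9, Cox4i2 and Notch3 were not called, at -0.89, -0.66 and -0.07. The summed level of the list ran from 12.16 to 12.83 in Foxa2+/- and from 13.05 to 14.65 in wild-type libraries.

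Fewer fibroblast markers fell, where 4.15% of all genes tested were called lower and 1.96% higher. Of 31 tested, 13 fell and 1 rose (median -0.79, 12 to 16 lower in the runs that left out a library). Itga8, an integrin chain of alveolar fibroblasts, was at 9.45, 9.36, 9.11 and 9.05 in Foxa2+/- libraries, against 11.79, 12.17, 10.97, 11.16 and 12.18 in wild type (-2.41, SE 0.31), and the amino acid transporter Slc7a10 fell by 2.79. The interstitial collagens Col1a1, Col1a2 and Col3a1 were at -1.09, -1.30 and -1.07 and not called, and the adventitial markers Pi16, Col14a1 and Dcn at 0.12, 0.25 and 0.21. Scara5, a ferritin receptor, was the 1 rise, at 1.24 (adjusted p 0.00594 in limma). Like Akap5 and Emp2 below and the members given as not called, it was picked out after its value was seen. The fibroblast list's mean was 10.51, 10.16, 10.07 and 11.03 in Foxa2+/- libraries and 11.51, 11.73, 11.01, 11.56 and 11.97 in wild type, so Foxa2+/- replicate 14 reached wild-type replicate 3. Contractile genes fell in 4 of 15 smooth muscle markers, Myl9 by 1.83, Myh11 by 1.61, Des by 2.05 and Tagln by 0.93, while Acta2, smooth muscle actin, was at -0.57 and not called.

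Matrix genes fell to different extents, where 4.15% of all genes tested were called lower and 1.96% higher. Of 20 genes of the elastic fibre, 10 fell (median -1.25, 5 to 10 in the runs that left out a library, fewest without Foxa2+/- replicate 12), among them Ltbp1 and Ltbp2, which store latent TGF-beta, by 2.09 and 1.46, Fbln5 by 1.31 and elastin, Eln, by 1.63. Eln was at 10.87, 10.98, 10.54 and 12.00 in Foxa2+/- libraries and 12.83, 12.58, 11.97, 13.55 and 12.71 in wild type, with replicate 14 just above wild-type replicate 3. Of 33 collagen genes 4 fell and 1 rose (median -0.45, 2 lower without Foxa2+/- replicate 11 and 8 without replicate 14). Laminin and integrin genes fell in 6 of 31, with Lama2 at -2.13, Lama4 at -1.28 and Itgb1, the common integrin beta chain, at -0.28. Taken over the 8 vessel and mesenchymal marker lists, 86 of 152 genes fell and 1 rose, and outside all 62 lists 482 of 13793 genes fell and 274 rose.

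**Figure D3:**
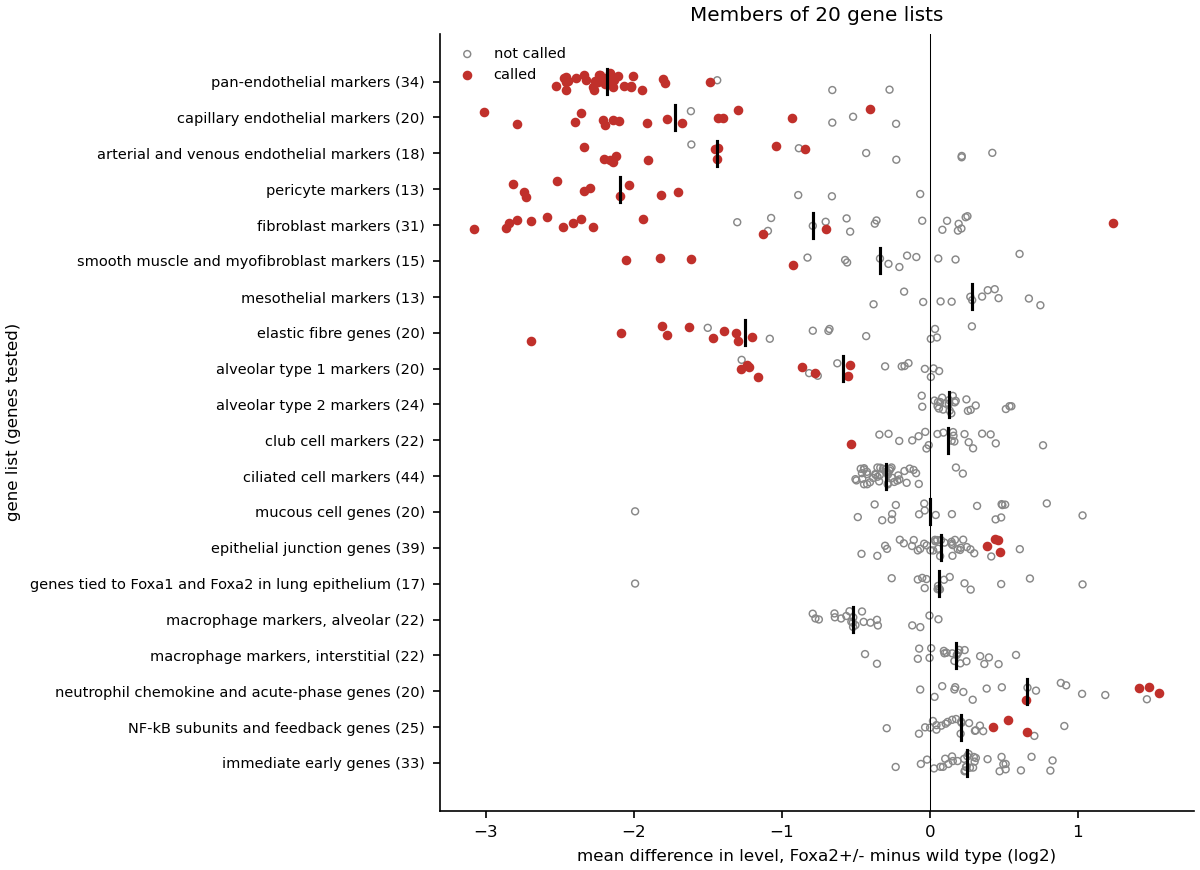
Mean difference in level (log2, Foxa2+/- minus wild type) of each tested member of 20 gene lists, with called members filled in red, members not called as open circles and the list median as a black bar. Vessel, pericyte and elastic fibre genes lie to the left, with medians of -2.18, -2.10 and -1.25, while alveolar type 2, club and junction genes lie near 0.

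Among the epithelial cell lists, alveolar type 1 markers held the most called falls. These cells form the thin gas-exchange surface, and 8 of 20 markers tested were lower while 0 were higher, with a median of -0.59. Over all genes tested, 4.15% were called lower and 1.96% higher. Sema3e, a semaphorin, was at 12.20, 12.43, 12.12 and 12.29 in Foxa2+/- libraries, against 13.44, 13.03, 12.77, 13.19 and 13.21 in wild type (-0.87, SE 0.13, adjusted p 0.000755 in limma). Ager, a receptor abundant on these cells, was at 16.26, 16.17, 16.29 and 16.11, against 16.85, 16.66, 16.41, 16.92 and 16.92 (-0.54, SE 0.12, adjusted p 0.012 in limma). The groups did not overlap in either gene. Rtkn2 fell by 1.27, Clic5, a membrane-cytoskeleton linker, by 1.16, and Spock2 by 1.23. Akap5 and Emp2 fell by 1.22 and 0.55, the Akap5 call ending without Foxa2+/- replicate 11 or 13 and the Emp2 call holding only without Foxa2+/- replicate 13 or wild-type replicate 3 (adjusted p up to 0.0561 and 0.08 in limma). Hopx, a homeodomain protein of these cells, was called at -0.77, but held only without wild-type replicate 3 among the 9 runs (adjusted p up to 0.106 in limma).

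Some type 1 markers were close to 0: the water channel Aqp5 was at 0.02, Gprc5a at 0.01 and Clic3 at -0.03, none called. The count ran from 5 (without Foxa2+/- replicate 11) to 11 (without wild-type replicate 3). The list's mean was 13.72, 13.80, 13.75 and 13.76 in Foxa2+/- libraries, against 14.51, 14.39, 13.83, 14.47 and 14.55 in wild type. Wild-type replicate 3, lowest for type 1 markers, was also the lowest for endothelial and pericyte markers. With the pan-endothelial mean as covariate 0 type 1 markers were called. The sign of Spock2, Akap5, Emp2 and Hopx turned in that fit, while that of Sema3e, Ager, Rtkn2 and Clic5 did not. Since that mean and genotype cannot be told apart, these signs do not sort the type 1 markers. The part of those cells in the type 1 result was not tested.

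Of the alveolar type 2 markers 0 of 24 were called, with a median of 0.13, which was -0.06 under the junction scaling. Sftpc and Sftpb, the surfactant proteins, were at 18.56 to 18.73 and 18.27 to 18.34 in Foxa2+/- libraries and at 18.56 to 18.73 and 18.09 to 18.34 in wild type. Sftpc took 1 of 2 values in every library, since the normalization leaves only the rank of so abundant a gene, and a change of its amount at the same rank would not be seen. Abca3, the lipid transporter of lamellar bodies, was at 0.05 (SE 0.16).

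Of 17 genes that studies in mouse lung tie to Foxa1 and Foxa2, 0 were called (median 0.06, range -1.99 to 1.03). In the runs that left out a library 0 to 1 of them were called higher. Under the junction scaling the median was -0.13 and 1 was called lower. The chloride channel Cftr was at 12.88, 13.60, 13.47 and 13.55 in Foxa2+/- libraries and at 13.19, 12.81, 12.73, 12.10 and 12.68 in wild type (0.68, SE 0.24, adjusted p 0.117 in limma), with replicate 11 below wild-type replicate 1. The club cell genes Scgb1a1 and Scgb3a2 were at -0.02 (SE 0.13) and 0.23 (SE 0.21). Muc5ac and Spdef, which rise in mucous cell metaplasia, were at 0.48 and -0.26 and not called. Of 20 mucous cell genes 0 were called (0 to 1 higher in the runs that left out a library).

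Airway lists held few calls. Of 44 ciliated cell genes 0 were called, although 42 had a difference below 0 (median -0.30). Under the junction scaling 8 of the 44 were called lower and the median was -0.49. Foxj1, their master regulator, was at 14.46, 14.38, 13.71 and 14.15 in Foxa2+/- libraries and 14.68, 14.35, 14.72, 14.89 and 14.72 in wild type (-0.50, adjusted p 0.0904 in limma). Of 22 club cell genes, Sec14l3 fell by 0.53, and of 13 basal cell genes, Jag2 fell by 0.49, where 4.15% of all genes were called lower. Both calls were lost in 6 of 9 runs, without Foxa2+/- replicates 12, 13 or 14 and wild-type replicates 1 or 4 in both, 3 in Sec14l3 and 5 in Jag2 (adjusted p up to 0.111 and 0.112 in limma).

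A few junction and keratin genes rose. Of 39 tested, 4 rose and 0 fell (median 0.07, or -0.11 under the junction scaling, which calls 0 higher and 7 lower). That scaling sets the median of these same genes equal in all libraries, so it is no check on a rise they share. Krt8, a keratin of simple epithelia, was at 15.48, 15.49, 15.64 and 15.34 in Foxa2+/- libraries, against 14.91, 15.01, 15.05, 15.08 and 15.19 in wild type (0.44, SE 0.09, adjusted p 0.00584 in limma). The adhesion molecules Nectin2 and Nectin4 rose by 0.46 and 0.48. Krt18, the partner of Krt8, rose by 0.38, but not without Foxa2+/- replicates 11, 12 or 13 or wild-type replicates 1, 2 or 4 (adjusted p up to 0.101 in limma). Epcam, the capture target, was at 14.19, 13.95, 13.81 and 13.99 in Foxa2+/- libraries and 13.75, 13.79, 14.00, 13.93 and 13.95 in wild type, a difference of 0.10 (SE 0.11) that was not called. Among 40 lung epithelial transcription factors, Ehf rose by 0.47 and Foxa2 and Wwtr1 (Taz) fell, Wwtr1 by 0.43. These counts, 1 higher and 2 lower, lie near the shares over all genes, 1.96% and 4.15%. Under the junction scaling 0 of the 40 were called higher and 5 lower. The Ehf call ended without Foxa2+/- replicate 12 or 14 (adjusted p up to 0.0619 in limma), and the Wwtr1 call held only without wild-type replicate 3 (up to 0.0877). The glucose transporter Slc5a1 rose by 0.62, its call ending without Foxa2+/- replicate 12 (adjusted p 0.0596 in limma).

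Several signalling genes that fell are also expressed by vessels or stroma, whose markers fell in the same libraries (31 of 34 endothelial, 10 of 13 pericyte), and the part of those cells was not tested. Over all genes, 4.15% were called lower and 1.96% higher. In the Notch list 8 of 28 fell and 0 rose (5 without Foxa2+/- replicate 12), with Hey1, Dll4 and the ligand Dll1 (-1.34), the glycosyltransferase Mfng (-0.70) and Heyl (-1.45, call ending without Foxa2+/- replicate 12 at an adjusted p of 0.0523 in limma). The receptors Notch1 and Notch2 were at 0.04 and 0.02. In the TGF-beta and BMP list 9 of 41 fell: Bmp6, at 9.04, 9.75, 9.48 and 9.59 in Foxa2+/- libraries against 12.06, 12.24, 10.67, 12.29 and 12.65 in wild type, the endothelial BMP receptor Acvrl1 (-1.49), the co-receptor Tgfbr3 (-1.34) and the transducer Smad9 (-0.85) were among them. Tgfb3 rose by 0.80, a call lost without Foxa2+/- replicate 13 or 14 or wild-type replicate 1 or 2 (adjusted p up to 0.0786 in limma).

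Of 38 Wnt genes 4 fell, against 4.15% of all genes tested. Wif1, a secreted Wnt inhibitor known from type 2 and mesenchymal cells, was at 10.51, 10.50, 10.18 and 10.66 in Foxa2+/- libraries, against 11.35, 11.89, 11.34, 11.70 and 11.91 in wild type (-1.18, SE 0.21, adjusted p 0.00187 in limma). The nuclear effectors Tcf7 and Lef1 fell by 1.12 and 1.80, and the receptor Fzd4 by 1.31, held only without wild-type replicate 3 (adjusted p up to 0.0869 in limma). Axin2, the usual readout of the pathway, was at 0.39 and not called. In the FGF, EGF and Hedgehog list 2 of 36 rose (0 without Foxa2+/- replicate 13) and 4 fell, against 1.96% and 4.15% of all genes. Areg (amphiregulin), a ligand of the EGF receptor, was at 12.77, 12.71, 13.36 and 11.94 in Foxa2+/- libraries and 11.20, 11.33, 11.94, 10.85 and 11.34 in wild type (1.36, SE 0.32), its call ending without Foxa2+/- replicate 13 (adjusted p 0.0741 in limma). Fgf1 fell by 0.47, Fgf7, a stromal growth factor for epithelium, by 1.10, and Fgfr3 by 0.51, the last not without Foxa2+/- replicate 13 (adjusted p 0.0542 in limma).

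Of the inflammatory lists, those of neutrophil chemokine and acute-phase genes and of the NF-kB pathway held several members that rose. Of 20 chemokine and acute-phase genes tested, 4 rose (1 to 3 in the runs that left out a library) and 0 fell, against 1.96% called higher over all genes. A difference above 0 was seen in 19, and the median was 0.65, against 0.04 over all genes. Cxcl1, a neutrophil attractant, was at 10.87, 10.45, 11.49 and 11.24 in Foxa2+/- libraries, against 9.72, 9.32, 10.17, 9.68 and 9.12 in wild type. The lowest Foxa2+/- library was above the highest wild-type one, the difference was 1.41 (SE 0.25, 2.66-fold, adjusted p 0.00184 in limma), and the call held in every run. Saa3, a serum amyloid made in inflamed lung, was at 9.92, 8.92, 10.92 and 10.49, against 8.72, 8.64, 8.01, 8.82 and 8.39 (1.55, SE 0.41). Lcn2, an iron-binding antibacterial protein, was between 14.74 and 15.09, against 14.02 to 14.71 in wild type (0.65, SE 0.18). Their groups did not overlap, but in Lcn2 by a margin smaller than the spread.

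The calls other than Cxcl1 were weak. Saa3 lost its call in 7 of 9 runs, all but those without Foxa2+/- replicate 12 or wild-type replicate 4, and Lcn2 in 8, all but that without wild-type replicate 2 (adjusted p up to 0.125 and 0.104 in limma). Il6, an interleukin, rose by 1.48 with overlapping groups, 7.31, 6.0, 7.58 and 6.66 in Foxa2+/- libraries and 5.70, 5.13, 6.94, 4.33 and 4.92 in wild type, and kept its call only without Foxa2+/- replicate 12 or wild-type replicate 3 (adjusted p up to 0.159 in limma). The count of called members was therefore 1 to 3 in those runs and 2 under the junction scaling. Of the others, Ccl20, Cxcl5, Il1b and Cxcl2 were at 1.47, 1.19, 1.03 and 0.88 and C3, the central complement component, at 0.72, none called.

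Genes of the NF-kB pathway, which Cxcl1 and Saa3 are known to answer to, rose in 3 of 25 (1 to 4 when a library was left out, median 0.21, or 0.02 under the junction scaling, which calls 0 higher). The share called higher over all genes was 1.96%. Birc3, an inhibitor of cell death, was at 13.28, 13.28, 13.42 and 13.39 in Foxa2+/- libraries, against 12.91, 12.96, 13.12, 12.81 and 12.78 in wild type (0.43, SE 0.08, adjusted p 0.00217 in limma). Bcl3 and Nfkbiz rose by 0.53 and 0.66, each lost in 7 of 9 runs: Bcl3 held only without Foxa2+/- replicate 14 or wild-type replicate 3, and Nfkbiz only without Foxa2+/- replicate 12 or wild-type replicate 3 (adjusted p up to 0.128 and 0.152 in limma). The subunits Rela, Nfkb1 and Nfkb2 were at 0.11, 0.02 and 0.21 and not called.

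Beside these rises, immediate early genes, which tissue dissociation can induce, had a mean of 13.91, 13.45, 13.74 and 13.68 in Foxa2+/- libraries and 13.38, 13.33, 13.83, 13.43 and 13.04 in wild type, with 0 of 33 called and 30 above 0 (median 0.25). Without wild-type replicate 3, 7 of the 33 were called higher in limma. Granulocyte and mast cell markers, 10 tested of 25, ran from 8.90 to 10.29 in Foxa2+/- libraries and from 9.38 to 10.39 in wild type. Interstitial macrophage markers ran from 11.84 to 12.62 and from 11.83 to 12.26, with 0 of 22 called. The part of dissociation and of these cells in the chemokine result was not tested. Ptprc, the pan-leukocyte marker, was at 14.10 to 14.50 in Foxa2+/- libraries and 13.96 to 14.57 in wild type, so leukocyte RNA was present in every library. Among the other immune lists, Gata2 (-2.22) was the 1 fall of 10 granulocyte and mast cell markers and Ace (-2.05) of 14 monocyte markers, both also expressed in endothelium. Cd247 (-1.22) was the 1 fall of 20 T and NK cell markers, held only without wild-type replicate 3 (adjusted p up to 0.0939 in limma). Red cell and platelet genes fell in 2 of 7 (0 to 3 in the runs that left out a library) and interferon-stimulated genes in 1 of 37 (1 to 3). Of 29 complement and coagulation genes 2 rose and 1 fell, against 1.96% and 4.15% of all genes. C6 of the terminal pathway rose by 0.91, and C7 of the same pathway fell by 2.53. The kininogen gene Kng2 rose by 3.89 (SE 0.70), the largest difference in the list.

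Housekeeping and metabolic lists held few calls. Of 76 cytosolic ribosomal protein genes, 73 mitochondrial ribosomal protein genes and 36 proteasome genes 0 were called, with medians of 0.03, 0.06 and 0.01, or -0.16, -0.13 and -0.18 under the junction scaling. Of 80 oxidative phosphorylation genes, Cox6a2, the muscle form of a cytochrome oxidase subunit, rose by 1.04, a call ending without Foxa2+/- replicate 13 (adjusted p 0.0633 in limma). Srxn1, a target of the oxidant sensor Nrf2, and Sesn2, a stress-induced regulator, rose by 0.62 and 0.56. Srxn1 is also 1 of the 6 genes called higher within 5 Mb of Foxa2. Of 30 glutathione and Nrf2 target genes 1 rose and 2 fell, and of 29 unfolded protein response genes 1 rose and 0 fell. Over all genes, 1.96% were called higher and 4.15% lower. The extracellular antioxidant enzymes Sod3 and Gpx3 fell by 2.08 and 1.85. Heat shock proteins gave 0 of 31 calls (median -0.12), against 10 lower under the junction scaling (median -0.31), and cholesterol synthesis gave 0 of 22, against 1 lower.

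Set directly against double-heterozygous libraries, which share the Foxa2 genotype and carry in addition 1 Falcor allele fewer, Foxa2+/- libraries differed in 370 of 15249 genes (2.43%), 209 higher (1.37%) and 161 lower (1.06%). The count was 90 without Foxa2+/- replicate 13, 183 without Foxa2+/- replicate 14, and 171, 152 and 130 without double-heterozygous replicates 15, 16 and 17. Foxa2 and the Falcor transcript were not called, at 0.03 (SE 0.11) and 0.04 (SE 0.30), and 0 of 34 pan-endothelial markers were called. Macrophage genes were among those that differed: 15 of 22 interstitial macrophage markers were higher in Foxa2+/- libraries and 0 lower (median 2.11, with 6 called without Foxa2+/- replicate 13). Stab1, a scavenger receptor, was at 13.63, 13.57, 14.13 and 13.17 in Foxa2+/- libraries, against 9.48, 8.82, 9.31 and 9.82 in double-heterozygous libraries (4.26, SE 0.43, adjusted p 7.67e-05 in limma). Its wild-type levels, 13.94, 13.16, 13.22, 13.54 and 13.77, overlapped those of Foxa2+/-. F13a1, a transglutaminase of macrophages, differed by 6.46 (SE 0.96) and Pf4, a chemokine of platelets and macrophages, by 3.37. Mmp9 and Vcam1 were 4.0 and 3.90 higher, and the complement component C1qc 4.32, the last not without Foxa2+/- replicate 13 or double-heterozygous replicate 17 (adjusted p up to 0.0671 in limma).

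The chemokine genes also separated these 2 genotypes, with 6 of 20 higher in Foxa2+/- libraries and 0 lower (4 without Foxa2+/- replicate 13). Over all genes, 1.37% were called higher and 1.06% lower in this comparison. Cxcl1 was at 10.87, 10.45, 11.49 and 11.24 in Foxa2+/- libraries, against 7.80, 8.60, 8.31 and 8.35 in double-heterozygous libraries (2.75, SE 0.26), and Cxcl2, Saa3 and Ccl2 were 2.48, 2.86 and 1.06 higher. Macrophage markers were higher in the same libraries, and their part in this difference was not tested. Immediate early genes were higher in 9 of 33, among them the phosphatases Dusp6 (0.71) and Dusp1 (0.83), though in 1 of 33 without Foxa2+/- replicate 13, without which the Dusp1 call ended (adjusted p 0.0543 in limma). Of 21 clock genes 3 were higher (0 without Foxa2+/- replicate 13) and 5 lower: Tef, Per3 and Bhlhe41, which are output and feedback genes of the clock, were 0.96, 1.33 and 1.09 lower, and Arntl, its activator, 1.49 higher, the last not without Foxa2+/- replicate 13 or double-heterozygous replicates 15 or 16 (adjusted p up to 0.0577 in limma). The hour of tissue collection is not given in the sources used here.

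**Figure D4:**
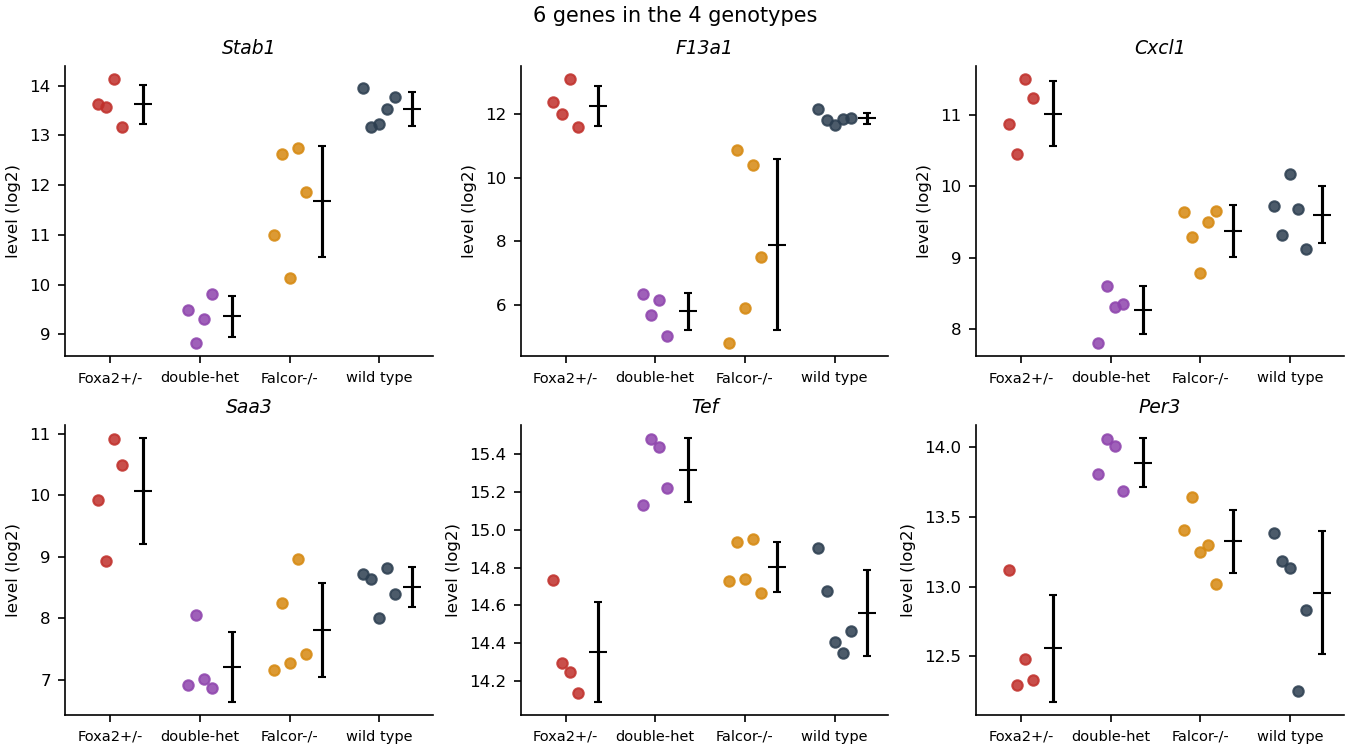
Level (log2) of the macrophage genes Stab1 and F13a1, the inflammatory genes Cxcl1 and Saa3 and the clock genes Tef and Per3 in each library of Foxa2+/-, double-heterozygous, Falcor-/- and wild-type mice, with bars for mean ± SD (n = 4, 4, 5 and 5). Stab1 in the double-heterozygous libraries lies below all others, Falcor-/- libraries are spread widely for F13a1, and Cxcl1 is highest in the Foxa2+/- libraries.

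Against Falcor-/- libraries, Foxa2+/- libraries differed in 2540 of 15249 genes (16.7%), 1235 higher (8.1%) and 1305 lower (8.56%), or 470 higher and 3417 lower under the junction scaling, a count that leans on single libraries: it was 764 without Foxa2+/- replicate 13, 1292 to 1438 without Foxa2+/- replicate 12 or 14 or Falcor-/- replicate 6, 9 or 10, and 4742 without Falcor-/- replicate 7. The Falcor transcript was 5.49 higher (SE 0.29) and Foxa2 0.34 lower, the Foxa2 call ending without any 1 Foxa2+/- library or without Falcor-/- replicate 6, 8 or 9 (adjusted p up to 0.101 in limma). Interstitial macrophage markers were higher in 18 of 22 (8 without Foxa2+/- replicate 13), with F13a1 at 12.37, 12.01, 13.09 and 11.60 in Foxa2+/- libraries, against 4.81, 10.87, 5.91, 10.39 and 7.52 in Falcor-/- libraries, which were spread widely. Pan-endothelial markers were lower in 27 of 34 (median -1.40, 16 without Foxa2+/- replicate 13).

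Epithelial lists differed too, where 8.1% of all genes were called higher and 8.56% lower. Mucous cell genes were higher in 7 of 20 (4 without Foxa2+/- replicate 13), with the secreted mucins Muc5b and Muc5ac at 1.64 and 1.60, the immunoglobulin transporter Pigr at 1.40 and Foxa3 at 1.25. Muc5ac was not called without Foxa2+/- replicate 14 and Foxa3 not without replicate 13 (adjusted p 0.0519 and 0.06 in limma). Ciliated cell genes were lower in 21 of 44 (median -0.52, 7 without Foxa2+/- replicate 13), and alveolar type 1 markers in 7 of 20 (4 without Foxa2+/- replicate 13). Aass, the first enzyme of lysine breakdown, was 2.73 lower (SE 0.51), and Cd177, C2cd4b and Itih5 were 2.88, 2.74 and 2.71 higher. All 3 comparisons use the same 4 Foxa2+/- libraries, so their results are not independent of each other.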

How the data were processed

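RNA of EpCAM-captured lung cells was measured in 18 libraries, 1 deposited table each. The values are log2 levels that the authors deposited per gene, and they follow a single distribution in all libraries, as quantile normalization leaves them. STAR, limma and mm9 are named in the submitters' processing notes. Counting tool, annotation, filters and versions were not given in the sources used here. Depth per library is unknown. Levels are not per length, so levels of different genes were not compared. Of 15544 gene identifiers, 14994 had a symbol in the annotation used for names and 550 had none.

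Genes with a mean of 6 or more over the 18 libraries were kept (15249, with 295 left out). They were fitted in limma 3.58.1 (R 4.3.3) with 1 mean per genotype and an intensity trend, with 14 residual degrees of freedom and no pseudocount. A gene was called at a Benjamini-Hochberg adjusted p under 0.05 over all genes tested. Foxa2, the Falcor transcript, Foxa1 and Foxa3 also had a two-sided exact permutation test. The fit was checked on simulated data. Lists, 62 in all, and members were chosen with earlier results of these data known.

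The genes named are the Foxa genes and their neighbours, the 12 largest rises and falls and the 6 with the smallest p in each direction at a mean of 8 or more, and up to 5 called members of each list (2 if none was called), with exceptions marked or given as not called. Alternatives were a fit of the compared genotypes alone, no filter, a mean of 8 or more, no trend, library weights, scaling to the junction median, the pan-endothelial mean as covariate, and leaving out each library. A gene that the naming rule selects is not reported here.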

Additional observations from a re-analysis of the deposited data

Results flagged for a closer look

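Some libraries stood apart from the others of their genotype in genes the text names, by a test that compares the gap to the nearest library with the group's range. Such a gap arises by chance in about 1 in 20 groups, and 27 were found in 310 group tests, many of them of genes that move together. Of these gaps, 18 belonged to wild-type replicate 3, always as the lowest wild-type library. They were Thbd at 13.41, Cd93 at 13.03, Mmp2 at 9.92, Hsd11b1 at 10.16, Unc45b at 8.65, Robo4 at 10.11, She at 9.91, Sox7 at 10.01, Kdr at 12.29. The others were Ltbp1 at 9.62, Ltbp2 at 10.86, Rtkn2 at 12.53, Clic5 at 14.60, Spock2 at 13.34, Gprc5a at 15.13, Heyl at 7.53, Gata2 at 11.66 and Ace at 13.89.

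Foxa2+/- replicate 11 stood apart as the lowest Foxa2+/- library in Noxa1 (10.26) and Sftpb (18.27) and as the highest in Prox1 (9.09). Replicate 12 was the highest in Plvap (12.02), replicate 13 the lowest in Hsd11b1 (8.16) and replicate 14 the lowest in Lypd6b (10.62). In wild type, replicate 4 was the lowest in Tnfaip8l3 (8.66), replicate 5 the lowest in Cox6a2 (9.58) and replicate 2 the lowest in Sftpc (18.56), where all other wild-type libraries shared 1 value.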

How the results depend on the processing

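No paired analysis was made because the labels give no pairing. The replicate numbers run once through the whole series, so they do not tell whether libraries of different genotypes belong together. Against wild type, 932 genes were called in the fit as reported, 1947 with library weights, 1647 after scaling to the junction median and 0 with the pan-endothelial mean as covariate. Against double-heterozygous libraries the count was 370, 2125 with library weights and 241 after scaling. Against Falcor-/- libraries it was 2540, then 1181 in a fit of the compared genotypes alone, 4757 with weights, 3887 after scaling and 22 with the covariate. Leaving out 1 library gave 556 to 1118, 90 to 381 and 764 to 4742 calls in these 3 comparisons. Foxa2 ran from -0.61 to -0.55 and the Falcor transcript from 1.39 to 1.65 in those runs. With the covariate Foxa2 was -0.95 and the Falcor transcript 2.07, neither called (adjusted p 0.195 and 0.971 in limma).

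Called alveolar type 1 markers numbered 8, with 13 under weights, 13 after scaling and 5 to 11 when a library was left out. Called pericyte markers numbered 6 among genes with a mean of 8 or more and 8 to 10 with a library left out, pan-endothelial markers 30 to 32 and fibroblast markers 13 to 17. Called chemokine genes numbered 2 after scaling and 1 to 3 with a library left out. In each of these 5 lists the covariate left 0 called, which for pan-endothelial markers follows from its being their own mean. It also turned the sign of Acvrl1 (0.10), Pecam1 (0.00812), Cd93 (0.74) and Thbd (0.0193), which are members of that mean, and of Cd247 (0.0845), Gpx3 (0.0425), Akap5 (0.25), Emp2 (0.19), Wwtr1 (0.066), Sema3a (0.0045), Heyl (0.0044), Fzd4 (0.0657), Spock2 (0.17) and Hopx (0.0852), and no other setting turned the sign of a called gene named here. The cause was not tested. The depth of the libraries is unknown, so no counting error can be given for low genes.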

Other observations

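Mesothelial markers ranged widely within each genotype. Their mean level over 13 genes was 10.92, 8.89, 9.46 and 12.30 in Foxa2+/- replicates 11 to 14 and 9.20, 9.46, 9.99, 10.80 and 11.27 in wild-type replicates 1 to 5, and 0 of 13 were called (median difference 0.29). Foxa2+/- replicates 11 and 14, high in these markers, were not the libraries highest in pan-endothelial markers, where replicate 12 stood first at 10.71.

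Alveolar macrophage markers were called in 0 of 22, with 21 differences below 0 and a median of -0.52. Dendritic cell and B cell markers were called in 0 of 20 and 0 of 18, and class II MHC genes in 0 of 13. Neuroendocrine genes gave 0 of 16 calls, and tuft cell and ionocyte genes 0 of 11.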
